A study of Rattus norvegicus with 9 samples.

Results

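Expression of 10 circadian clock genes was examined in rat hearts: the activator Arntl, the repressors Per1, Per2, Per3, Cry1 and Cry2, the nuclear receptors Nr1d1 and Nr1d2, and the output factors Dbp and Tef. The genes were chosen by name and read wherever a deposited table listed them. Of the 10, 4 were listed in at least 1 of the tables, which together list 5760 genes: Per2, Dbp and Nr1d2 in the table of the Cal and model groups, and Per1 in the table of the model and sham groups. The other 6 genes (Arntl, Per3, Cry1, Cry2, Nr1d1 and Tef) were in neither table and were not analysed here.

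Cardiac RNA of 9 male Sprague Dawley rats was sequenced, 3 in each of 3 groups. Sham rats (labelled Control) had sham surgery, and heart failure was induced in model and Cal rats by tying the left anterior descending artery. Cal rats then received calycosin (Cal), an isoflavone of Astragalus, by mouth at 80 mg/kg per day, sham and model rats received distilled water, and treatment lasted 28 days. The 3 animals of a group were drawn at random from a larger group, hearts were flash frozen, and no hour of death is given in the sources used here.

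The mammalian clock is a feedback loop of transcription. Arntl (also called Bmal1) and its partner Clock switch on the Per and Cry genes at E-box motifs, and the PER and CRY proteins then inhibit that activity. Nr1d1 and Nr1d2 (REV-ERB alpha and beta) repress Arntl in a second loop, while Dbp and Tef carry the rhythm to other genes through D-box motifs, where Nfil3 acts as the opposing repressor. Most of these transcripts rise and fall each day in the heart, and Per1 and Per2 also respond to glucocorticoids and to acute stimuli.

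The column headings of the tables conflict, which bears on every direction below. In the table of the Cal and model groups, the mean column headed Cal equals the average of the 3 Model sample columns in 4288 of 4288 genes, and the reverse holds for the other mean column. In the table of the model and sham groups, the sample columns are headed Cal and Con, and their Cal reads are identical to those of the first table in 986 of 986 shared genes. Libraries are therefore named by their sample headings, and read by the mean columns, the 2 names would change places. Values are normalized counts, that is, reads divided by a size factor for each library. Reads on listed genes ranged from 2860826 to 4659882 per library and table, so the full depth is unknown. Each table lists only genes to which the authors had given an adjusted p under 0.05. A difference in a listed gene was therefore selected beforehand, and the tests below describe its size rather than give independent evidence of it. The heart markers Myh6, Ryr2 and Atp2a2, listed in the table with sham, summed to 586090 to 607228 normalized counts in the Cal-headed libraries. In the Con-headed ones they summed to 449860 to 553490, and their log2 fold changes, Cal over Con, were 0.26 to 0.31. The median over all genes of that table was 0.37, and these were the 3 listed of 11 cardiomyocyte markers.

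The deposited values carry mouse identifiers, so the rat sequences below were matched to them by gene name only. The stretches before the annotated starts of the 3 genes that lay lower in the Cal-headed libraries are shown first, because the clock acts on such regions. They are the 250 bases upstream of the start in the rat RefSeq annotation (GRCr8), 5′ to 3′ on the strand of the gene, and capitals mark the clock motifs found: chr9:99496994-99497243 on the minus strand for Per2, chr1:105312006-105312255 on the plus strand for Dbp and chr15:9954784-9955033 on the plus strand for Nr1d2.
Per2: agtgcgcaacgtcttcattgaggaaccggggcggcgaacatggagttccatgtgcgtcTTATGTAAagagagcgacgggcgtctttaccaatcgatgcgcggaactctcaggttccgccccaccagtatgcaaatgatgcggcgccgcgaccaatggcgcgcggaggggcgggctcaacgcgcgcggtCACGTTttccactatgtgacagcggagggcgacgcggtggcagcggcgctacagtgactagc
Dbp: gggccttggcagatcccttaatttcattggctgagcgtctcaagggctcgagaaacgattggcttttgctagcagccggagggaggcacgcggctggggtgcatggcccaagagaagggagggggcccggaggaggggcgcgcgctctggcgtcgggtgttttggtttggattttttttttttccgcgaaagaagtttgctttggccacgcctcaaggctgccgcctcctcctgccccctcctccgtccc
Nr1d2: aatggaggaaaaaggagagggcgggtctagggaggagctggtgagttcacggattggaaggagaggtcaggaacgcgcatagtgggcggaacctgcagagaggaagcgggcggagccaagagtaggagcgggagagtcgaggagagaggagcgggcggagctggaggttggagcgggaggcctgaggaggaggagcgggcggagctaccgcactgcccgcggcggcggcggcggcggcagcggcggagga
Both strands were searched for the E-box (CACGTG), the E′-box (CACGTT), the D-box (TTATGTAA), the cyclic AMP response element (TGACGTCA) and the ROR element. Per2 carried a D-box from 192 to 185 bases and an E′-box from 62 to 57 bases before its start. A D-box was found in 0.828% and an E′-box in 4.07% of the 33469 rat promoters of this length. The windows of Dbp, Nr1d2 and Per1 held none of these letters, which says nothing about elements elsewhere in these genes. Among the members without values here, Per3 held none of these motifs and Cry1 had no promoter entry. Arntl (as Bmal1) carried a ROR element, which 0.4% of promoters held. Tef and the second of the starts of Nr1d1 carried an E-box, found in 5.59% of promoters, and Cry2 and the first start of Nr1d1 carried an E′-box.

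Between the Cal-headed libraries and the Model-headed ones, all 3 listed clock genes had the lower mean in the Cal-headed libraries. Per2 and Dbp passed an adjusted p of 0.05 in limma with a log2 fold change beyond 1, the call used throughout, and Nr1d2 did not reach the fold change. That rule called 60.1% of the 4288 listed genes, 31.6% as lower in the Cal-headed libraries and 28.4% as higher. Over all listed genes the median log2 fold change was -0.52, and 99.6% passed the adjusted p alone, so nothing particular to the clock is read from this count. By the mean columns, these genes would be higher in the Cal group.

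Per2, a repressor of the clock (mouse identifier ENSMUSG00000055866), had normalized counts of 119, 84.5 and 103 in the libraries headed Cal 1 to 3 and of 274, 249 and 268 in those headed Model 1 to 3. The groups did not overlap, and the spread within each was small against the gap between them. The means were 102 ± 17.3 and 264 ± 13.4 (SD, n = 3 each), so the Model-headed libraries were 2.58-fold higher. Groups failed to overlap in 98.2% of all listed genes, 52.5% with the Cal-headed libraries lower. Fitted as Cal over Model, the log2 fold change was -1.37 (95% interval -1.81 to -0.94, adjusted p = 0.000748 from limma), and the two-sided exact permutation test gave p = 0.1, the smallest that 3 against 3 allows. Per2 was called in all 14 alternative fits, with log2 fold changes from -1.49 to -1.08. It rested on 90 to 280 reads per library.

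Dbp, which encodes a D-box activator whose transcript is among the most strongly rhythmic of the clock outputs (ENSMUSG00000059824), had 446, 119 and 472 in the libraries headed Cal 1 to 3 and 533, 804 and 1168 in those headed Model 1 to 3. The highest library headed Cal lay just under the lowest headed Model, and the library headed Cal 2 stood well below both of its replicates. Means were 346 ± 197 and 835 ± 319 (SD, n = 3 each), and the log2 fold change was -1.44 (95% interval -2.70 to -0.17, adjusted p = 0.0317 from limma, two-sided exact permutation p = 0.1). Without the library headed Cal 2 the log2 fold change was -0.79 (adjusted p = 0.0486), under the limit of the call. The adjusted p rose above 0.05 without the library headed Model 2 (0.0773), without that headed Model 3 (0.125), under quantile normalization (0.0650) and under median-ratio scaling (0.0801). The SD of Dbp on the log2 scale over the Cal-headed libraries was 1.12, larger than in 97.7% of the listed genes, whose median was 0.18. Reads ranged from 127 to 1219, so counting error was small against this spread.

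Nr1d2, a nuclear receptor that represses Arntl (ENSMUSG00000021775), had 1697, 1235 and 1576 in the libraries headed Cal 1 to 3 and 2409, 2996 and 1631 in those headed Model 1 to 3. The groups overlapped, since the library headed Model 3 lay below that headed Cal 1. Means were 1503 ± 240 and 2346 ± 685 (SD, n = 3 each), and the log2 fold change was -0.61 (95% interval -1.17 to -0.05, adjusted p = 0.0374 from limma, two-sided exact permutation p = 0.2). The adjusted p was above 0.05 in 8 of the 14 alternative fits. Under quantile normalization and median-ratio scaling the log2 fold change shrank to -0.07 and -0.31 (adjusted p = 0.752 and 0.2003). It was -0.57, -0.41, -0.71, -0.48 and -0.65 without the library headed Model 1, Model 2, Cal 1, Cal 2 or Cal 3, with adjusted p from 0.0504 to 0.124, and -0.85 without that headed Model 3, with an adjusted p of 0.00624.

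**Figure D1:**
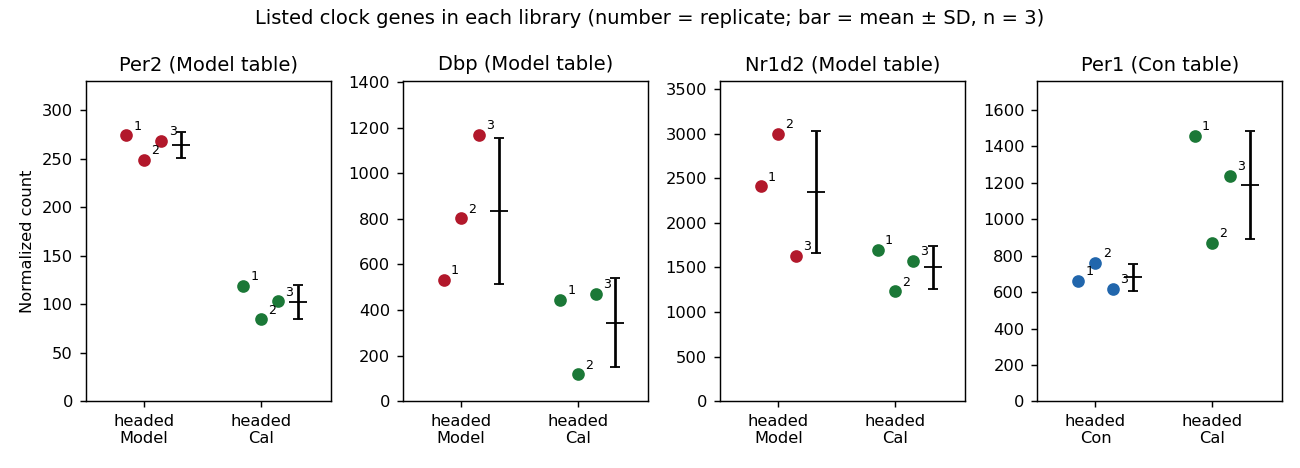
Normalized count (y axis, from 0) of Per2, Dbp, Nr1d2 and Per1 in each library, by the heading of its sample column (x axis), with the replicate number beside each point and the mean ± SD (n = 3) as a bar. Per2 separates the Cal-headed libraries from the Model-headed ones by a wide gap, Dbp by a narrow one, Nr1d2 overlaps, and Per1, from the other table, is higher in the Cal-headed libraries than in the Con-headed ones.

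Divided by the length of the deposited gene model, Nr1d2 had the highest level of the 3 genes and Per2 the lowest in both groups. In the Model-headed libraries these levels were 434 ± 127 normalized counts per kilobase for Nr1d2, 279 ± 106 for Dbp and 45.1 ± 2.28 for Per2, and the libraries of Nr1d2 and Dbp overlapped. In the Cal-headed ones they were 278 ± 44.3, 115 ± 65.7 and 17.5 ± 2.95 (SD, n = 3 each), with no overlap between genes. The lengths are those of mouse gene models, whereas the samples are described as rat.

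Per1, a repressor of the clock that is also an acutely induced gene (ENSMUSG00000020893), was the only member listed between the Cal-headed libraries and Con. Its normalized counts were 1458, 870 and 1238 in the libraries headed Cal 1 to 3 and 663, 761 and 618 in those headed Con 1 to 3. All libraries headed Cal lay above all headed Con, as did 58.8% of the 2458 genes of that table, in which the groups of 97.4% did not overlap. Means were 1189 ± 297 and 681 ± 73.0 (SD, n = 3 each), which is 1.75-fold. The log2 fold change of 0.78 (95% interval 0.36 to 1.19, adjusted p = 0.00501 from limma, two-sided exact permutation p = 0.1) was under the limit of the call, which 29.0% of the listed genes passed, 18.0% as higher in the Cal-headed libraries, whereas 99.8% passed the adjusted p alone. limma, edgeR and DESeq2 called 0 of 1 member here, while its unadjusted p was under 0.05 in each of these tools. With any 1 library left out its adjusted p was at most 0.0209, but it was 0.108 under quantile normalization, with a log2 fold change of 0.38, and 0.0523 under median-ratio scaling, with 0.49. The mean columns of this table name the comparison model over Con.

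The scaling of the libraries shifted whole tables. Quantile normalization and median-ratio scaling on the listed genes moved the median log2 fold change by 0.42 and 0.30 in the comparison with Model, and by -0.42 and -0.28 in that with Con. Both scalings used only genes listed for a difference, so they had no set of unchanged genes to align. For the same reason, the medians below are not levels of no change. Against the median of all listed genes, Per2 lay at -0.85 as deposited, -1.29 after quantile normalization and -0.85 after median-ratio scaling, and Dbp at -0.91, -1.05 and -0.91. Nr1d2 lay at -0.09, 0.03 and -0.09, so it did not stand apart from the middle of its table under any of them. Per1 lay 0.40, 0.42 and 0.40 above the median of its own.

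Within the Cal-headed libraries, the one headed Cal 2 had the lowest value of all 4 listed clock genes. It lay 0.26, 1.29 and 0.27 below the mean of the 3 on the log2 scale for Per2, Dbp and Nr1d2, and 0.42 below it for Per1. The same library was lowest in 42.0% of all genes of the first table and in 36.0% of those of the second. In Nfil3, which opposes Dbp at the D-box, it was instead the highest, by 0.25 above the mean. It was highest in 30.9% of all genes of the first table. Over the 6 libraries of that table, though, Nfil3 and Dbp had a positive Pearson r of 0.451. The library headed Model 1 was the lowest of its group for both. Of the other clock components read below, the library headed Cal 2 was lowest in 2 and highest in 1 of the 3 in the first table. In the second table it was lowest in 2 and highest in 1 of 4. The libraries headed Model showed no such common order, since each was lowest for 1 of Per2, Dbp and Nr1d2 and each was highest for 1. These are 3 animals, and the order is a description without a test.

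**Figure D2:**
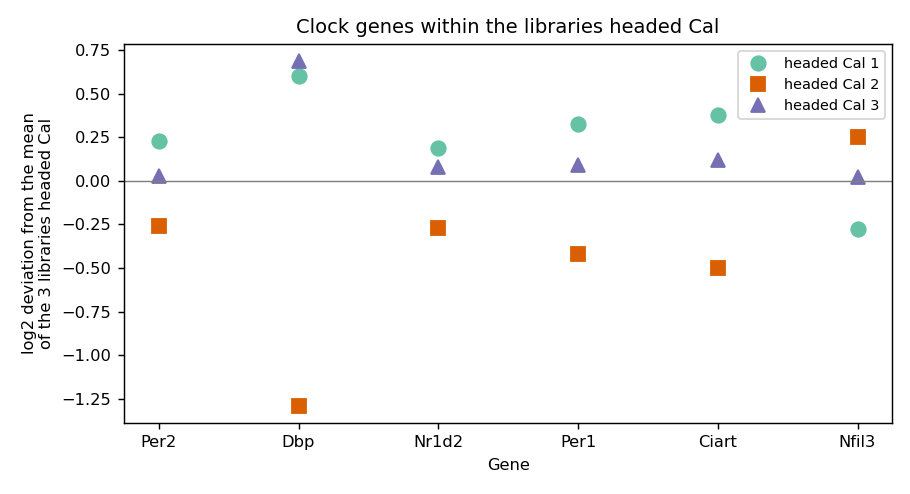
Deviation of each library headed Cal from the mean of the 3 on the log2(normalized count + 1) scale (y axis) for the 4 listed members and for Ciart and Nfil3 (x axis), with Per1 taken from the table with Con. The library headed Cal 2 (squares) is lowest for Per2, Dbp, Nr1d2, Per1 and Ciart and highest for Nfil3. Ciart rests on only 29, 15 and 26 reads in these libraries.

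Other components of the clock were taken from a list of 19 genes, of which 3 were listed between the Cal-headed libraries and Model, all lower in the Cal-headed ones. Of these 2 were called, in a table where the rule called 60.1% of all genes, 31.6% as lower. Ciart encodes a repressor of the Arntl and Clock pair. It had 26.8, 14.1 and 22.2 in the Cal-headed libraries, from only 29, 15 and 26 reads. In the Model-headed ones it had 100, 141 and 213. Its log2 fold change of -2.77 (SE 0.36, adjusted p = 0.000628 from limma) was larger in size than that of any listed member. In the Model-headed libraries its order followed that of Dbp, with Model 3 highest and Model 1 lowest for both genes. Over all genes of that table Model 1 was lowest in 34.4% and Model 3 highest in 33.2%. In the Cal-headed libraries Cal 2 was lowest for both, but Cal 3 was highest for Dbp and Cal 1 for Ciart. Timeless, named for its fly relative but best known in mammals for replication fork protection, had 239, 187 and 374 against 978, 2039 and 1469, a log2 fold change of -2.48 (SE 0.33, adjusted p = 0.000699 from limma). Nfil3 had a log2 fold change of -0.67 (SE 0.21, adjusted p = 0.0173 from limma) and was not called, and its adjusted p rose above 0.05 under quantile normalization (0.0518), under median-ratio scaling (0.116), without the library headed Model 2 (0.0516) and without that headed Cal 1 (0.0651).

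Between the Cal-headed libraries and Con, 4 of the 19 components were listed and all had the higher mean in the Cal-headed ones, with log2 fold changes from 0.30 to 0.91, although that of Fbxw11, a subunit of a ubiquitin ligase that acts on PER proteins, turned to -0.14 under quantile normalization. limma, edgeR and DESeq2 called 0 of the 4, all of which had an unadjusted p under 0.05. The others were Nfil3 (0.91), the repressor Bhlhe40 (0.51) and Csnk1d (0.53), a kinase that marks PER proteins for degradation. Under quantile normalization Bhlhe40 was at 0.036 (adjusted p = 0.789) and Csnk1d at 0.067 (adjusted p = 0.540), and under median-ratio scaling they were at 0.22 (adjusted p = 0.110) and 0.24 (adjusted p = 0.0242). Nfil3 passed the fold limit without the library headed Cal 1 (1.04) or Con 2 (1.01). Nfil3 was listed in both tables, which were normalized separately. With Con set to the scale of the first table through the shared libraries, it had 161 ± 22.7 in the Con-headed libraries, 305 ± 55.7 in the Cal-headed ones and 486 ± 106 in the Model-headed ones (SD, n = 3 each), and no group overlapped its neighbour.

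Of 16 genes picked as outputs of the clock in heart and other tissues, 9 were listed between the Cal-headed libraries and Model. Of these 4 were called lower in the Cal-headed ones, 1 higher and 4 not called, with a median log2 fold change of -0.77 against -0.52 over all genes of that table, of which 60.1% were called. The fall was largest for Pdk4, a kinase that restrains glucose oxidation, which ran from 10408 to 22731 in the Cal-headed libraries and from 78889 to 103462 in the Model-headed ones (log2 fold change -2.70, adjusted p = 0.00044 from limma). Nampt, which makes a precursor of NAD, was at -1.83, Ppp1r3c, a glycogen-targeting subunit, at -1.27, and Tspo, a mitochondrial membrane protein, at -1.16. Both of the last were under the fold limit after quantile normalization (-0.69 and -0.74) and median-ratio scaling (-0.97 and -0.86), and Tspo was also without the library headed Model 3 (-0.89). Quantile normalization also brought Pdk4 to -1.30 and Nampt to -1.14, with the calls kept. Tfrc, the transferrin receptor, was at 2.01. Noct and Ppara, a nuclear receptor of fatty acid metabolism, were at 0.84 and 0.78 and not called as deposited, but both were called higher after quantile normalization (1.37 and 1.00) and median-ratio scaling (1.14 and 1.07), and Noct also without the library headed Cal 1 (1.02). Between the Cal-headed libraries and Con, 8 of the 16 were listed and 2 called, both higher in the Cal-headed ones, where 29.0% of all genes were called and 18.0% as higher. They were Cdkn1a, a cell cycle inhibitor, at 2.96 and Noct, a rhythmic phosphatase, at 2.27.

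Glucocorticoids reset peripheral clocks and induce Per1, so 16 genes known to be induced by them were also read. Between the Cal-headed libraries and Model, 10 were listed, 7 called lower in the Cal-headed ones and 1 higher, with a median log2 fold change of -1.86. The median over all genes of that table was -0.52, and 31.6% of them were called lower and 28.4% higher. Fkbp5, a chaperone that limits the glucocorticoid receptor, had 298, 730 and 619 in the Cal-headed libraries and 4525, 3282 and 3316 in the Model-headed ones, a log2 fold change of -2.84 (SE 0.33, adjusted p = 0.00044 from limma). The others called lower were Zbtb16, Mt1, Mt2, Gadd45a, Hif3a and Angptl4, from -3.13 to -1.43, and the gene called higher was Rgs2, at 1.93. Under quantile normalization Mt1 went from -2.84 to -1.86. Dusp1, a phosphatase, was at 0.91 and not called, but was called higher after quantile normalization (1.43), after median-ratio scaling (1.21) and without the library headed Model 3 (1.18). Several of these genes respond to other stimuli as well, and the metallothioneins Mt1 and Mt2 are close paralogs between which reads could be split. Between the Cal-headed libraries and Con, 11 were listed and 7 called, all higher in the Cal-headed ones, with a median of 1.16 against 0.37 over all genes of that table, of which 29.0% were called, 18.0% as higher. Tsc22d3, a standard glucocorticoid target, went the other way, at -0.92 (adjusted p = 0.000347 from limma) with no overlap of the groups. It was not called as deposited, and was called lower after quantile normalization (-1.36), after median-ratio scaling (-1.20) and without the library headed Con 1 (-1.004). The called genes were Gadd45b (4.27), Cebpd (2.77), Mt1 (1.87), Errfi1 (1.64), Dusp1 (1.16), Fkbp5 (1.04) and Mt2, which had 0 reads in the Con-headed libraries and was at least 6.63-fold higher, taking 3 counts per library as the floor. Fkbp5 overlapped between the groups and was under the fold limit without the library headed Cal 2 (0.79), Cal 3 (0.91) or Con 2 (0.95), and Dusp1 was without that headed Con 1 (0.98). Both were also under it after quantile normalization (0.76 and 0.69) and median-ratio scaling (0.76 and 0.87). Klf9, which was not called, was at 0.25 as deposited and at -0.22 and -0.03 after these scalings.

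**Figure D3:**
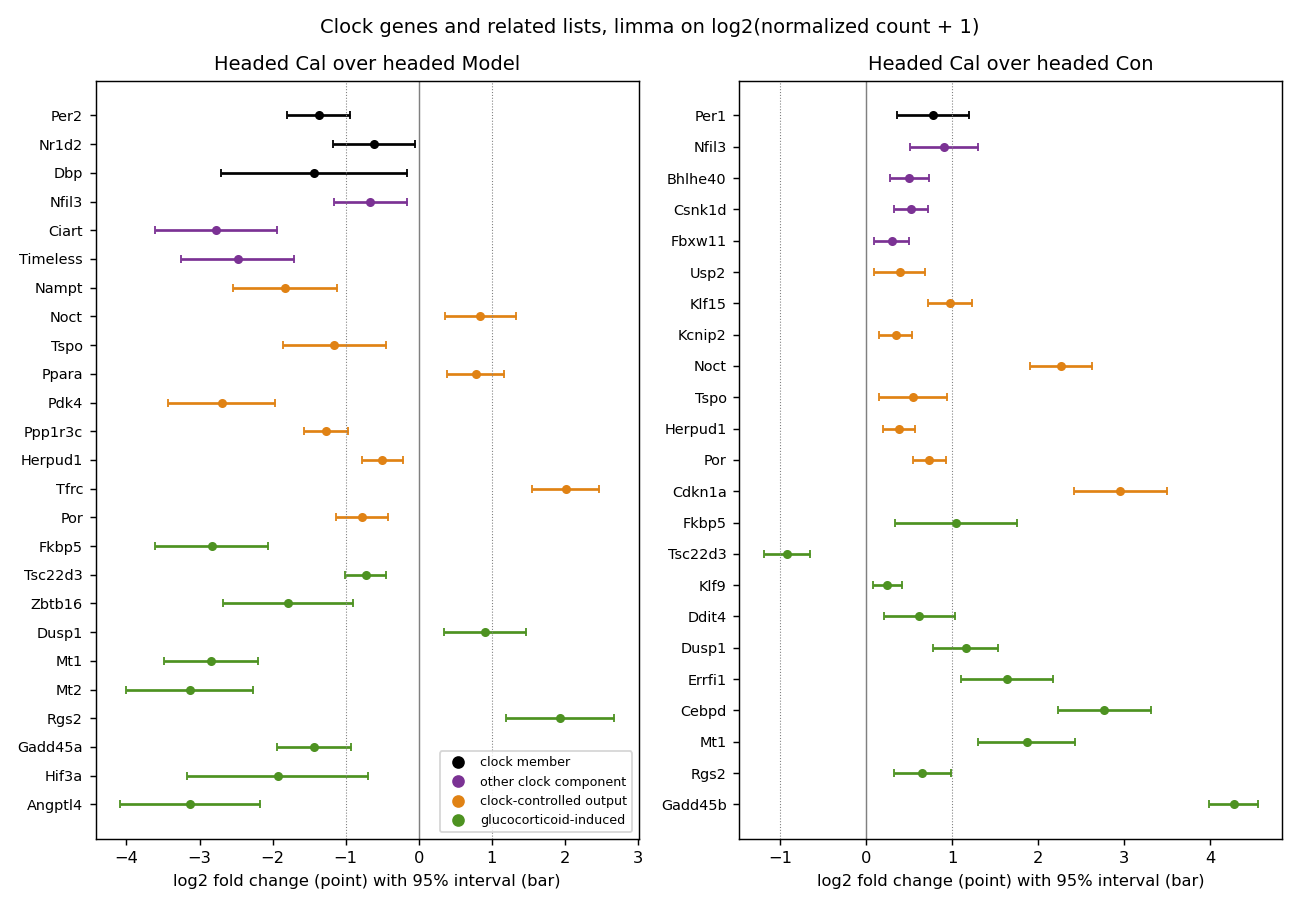
Log2 fold change (x axis, point) with its 95% interval (bar) from limma for each listed gene (y axis) of the clock members and of the lists of other clock components, clock-controlled outputs and glucocorticoid-induced genes, left for the Cal-headed libraries over Model and right for Cal over Con, with dotted lines at the limit of the call and Mt2 left out on the right. Most genes lie left of 0 on the left, with Per2 at -1.37 and Dbp at -1.44, and right of 0 on the right, with Per1 at 0.78.

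Markers of several cell types moved with the same headings, in tables where 31.6% of all genes were called lower and 28.4% higher against Model, and 10.9% lower and 18.0% higher against Con. Of 8 neutrophil markers, 7 were listed between the Cal-headed libraries and Model and all 7 called lower in the Cal-headed libraries, with a sum of 77.5 to 247 there and of 888 to 1100 in the Model-headed ones, and Mpo had 0 reads in every library headed Cal. Of 8 endothelial markers 7 were listed and 6 called higher in the Cal-headed libraries, with a sum of 16327 to 16702 against 5666 to 7947. Of 8 macrophage markers 5 were listed, 2 called higher and 1 lower, with a sum of 3644 to 4327 against 1549 to 2117. Of 8 fibroblast markers 4 were listed, 2 called higher, with overlapping sums of 17378 to 21126 against 15696 to 22941. Of 11 cardiomyocyte markers only Nppa was listed there, and it was called lower in the Cal-headed libraries (737 against 1593, log2 fold change -1.04). Myh6, Ryr2 and Atp2a2 were listed in the table with Con and not called. No lymphocyte marker was listed in either table. In the table with Con, 2 of 8 neutrophil markers were listed, S100a8 and S100a9, both called higher in the Cal-headed libraries, with a sum of 48.5 to 183 against 13.0 to 28.5, and Cd14, 1 of 2 macrophage markers listed, was called higher at 3.44. Of 6 endothelial markers listed there, 2 were called lower and 1 higher, with a sum of 13607 to 15132 against 19963 to 22978, and of 4 fibroblast markers 1 was called lower. Smooth muscle and pericyte markers, 2 and 4 of 5 listed, were not called in either table. In bulk tissue, fewer cells of a type and less RNA per cell cannot be told apart, and the part of these shifts in the clock gene values was not tested.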

How the data were processed

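Cardiac RNA of 9 rats was sequenced with paired-end reads. According to the study's methods, reads were aligned to rat reference sequences, counted per gene and tested with DESeq2, whereas the deposited identifiers, gene lengths and coordinates are those of mouse. The submitters' processing notes name Bowtie 0.12.2 and the builds mm8 and mm9, with no role given. The deposited signal is the read count of a gene divided by a size factor of the library, set separately for each table. Whole reads were recovered for 100% of values, with a tolerance of 0.02 reads. The authors also deposited group means, log2 fold changes and p-values of their own comparisons, and a gene length in bases, used for levels per kilobase. The fold changes were not used, and the p-values served only to see that no listed gene had an adjusted p above 0.05.

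The main test was limma 3.58.1 in R 4.3.3 (trended prior variance) on log2(normalized count + 1), fitted on each whole table, with Benjamini-Hochberg adjustment over its listed genes. A gene was called at an adjusted p below 0.05 with a log2 fold change beyond 1. The study's methods state the same fold limit with a p-value that is not described as adjusted, whereas its results describe it as adjusted. This test had been planned for normalized expression values and was kept for counts scaled by size factors. Fold changes on this scale understate those of low genes. Single genes were compared by exact two-sided permutation of the 3 against 3 libraries (scipy 1.17.1). Replicates are separate animals. The clock members and lists were chosen with earlier results of these data known. Named were all members, the other listed clock components, called genes of the output and glucocorticoid lists, and the 5 genes most like the member with the largest fold change; list genes that were not called are named only where a scaling or an opposing role bears on a result. Recovered reads were also tested with edgeR 4.0.16 and DESeq2 1.42.0. The other alternatives were to leave out each library, to block on the replicate number, to normalize by quantiles or by median ratios, to use a pseudocount of 0.1 or 10, to keep only genes with a mean of 10 or more, to drop the fold limit, and to require an adjusted p below 0.01. Promoters came from RefSeq (GRCr8), in which 9 of the 10 members matched, Arntl as Bmal1. Only the limma fit was tested on simulated data, in which most genes were unchanged, unlike the genes listed here.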

Additional observations from a re-analysis of the deposited data

How the results depend on the processing

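No listed clock gene changed direction in any of its 14 alternative fits, and by adjusted p alone the 4 genes stayed on the same side of 0.05 in 42 of 56 fits, with exceptions for Dbp, Nr1d2 and Per1. By the call, which also needs the fold limit, Per2 was called in 14 of 14, Dbp in 9, and Nr1d2 and Per1 in 0. The number of clock genes called between the Cal-headed libraries and Model was 2, and 1 under quantile normalization, median-ratio scaling and an adjusted p under 0.01, and from 1 to 2 with each library left out. Without a fold change limit 4272 and 2454 genes passed, against 2575 and 712 called, and 1 clock gene passed between the Cal-headed libraries and Con, where 0 were called. The share of calls higher in the Cal-headed libraries went from 47.3% to 54.2% and 61.1% against Model, and from 62.2% to 47.4% and 43.4% against Con, under quantile normalization and median-ratio scaling. Genes that were not called turned sign in 5 cases under quantile normalization, besides Klf9: Herpud1 to 0.044 against Model and -0.12 against Con, Fbxw11 to -0.14, Usp2 to -0.042 and Kcnip2 to -0.14. Klf9 turned to -0.22 and, under median-ratio scaling, to -0.033. The cause was not tested. With the replicate number as a block, 2574 and 713 genes were called, and the adjusted p of Nr1d2 was 0.0561. The numbers mark different animals, and same-numbered libraries correlated in their deviations at -0.12 to 0.11 against Model and -0.14 to -0.02 against Con, so they were not treated as pairs. The planned ratios to Arntl were not run, because neither Arntl nor Nr1d1 was listed.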

Other observations

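The genes whose log2 values over 6 libraries were most like those of Dbp in the table of the Cal-headed libraries and Model were Ifitm6 (Pearson r = 0.958), Gm11772 (0.955), Gm42462 (0.953), Igsf11 (0.952) and Spon1 (0.950). Ciart had 0.853. Those most like Per1 between the Cal-headed libraries and Con were Egr4 (0.981), Sde2 (0.981), Atf5 (0.968), Ier2 (0.966) and Egr1 (0.964). The points share their libraries and the difference between the groups for which the genes had been listed, so these values are a description.

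Of the genes of the lists, 11 were in both tables, and Con was set to the scale of the other table through the shared libraries, since the tables were normalized separately. Fkbp5 had 251 ± 44.8 normalized counts in the Con-headed libraries, 549 ± 224 in the Cal-headed ones and 3708 ± 708 in the Model-headed ones. Mt1 had 1533 ± 225, 5841 ± 2146 and 39902 ± 913 in the same order. Noct, which was highest in the Cal-headed libraries, had 501 ± 31.7, 2451 ± 547 and 1356 ± 230, and Dusp1 had 1218 ± 277, 2683 ± 320 and 1477 ± 514 (SD, n = 3 each). Tsc22d3 was lowest in the Cal-headed libraries, with 1821 ± 268, 959 ± 63.0 and 1588 ± 37.4, and Rgs2 was lowest in the Model-headed ones, with 408 ± 79.4, 636 ± 35.2 and 179 ± 89.5. Tspo, Herpud1, Por, Mt2 and Nfil3 had the order of Fkbp5 in their means. The mean columns would make the values under Cal those of the model group, and the reverse.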
